A study of Mus musculus with 9 samples.

Results

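The nuclear genes that encode the subunits of respiratory complexes II to V and cytochrome c were followed in polysome-bound mRNA of mouse oocytes. The members were found by a rule on symbols, set with earlier results of these data known. It takes Sdha to Sdhd, symbols starting with Uqcr, Cyc1, Cycs, symbols starting with Cox4 to Cox8, and symbols starting with Atp5. A RefSeq table of assembly GRCm38.p6 held 49 protein-coding genes that match. Of these, 48 had a probe set assigned to 1 gene symbol, out of 18193 genes measured in this way, and Cox7b was not measured. Complex II had 4 members, complex III 9, cytochrome c 1, complex IV 17 and complex V, the ATP synthase, 17. Of the 48, 43 reached the median signal of all genes, an intensity of 37.5, in their mean over the arrays, and 5 did not: Uqcrc1, Cox7a1, Cox7b2, Cox7c and Cox8b. No symbol of the mitochondrial genome was measured, so the subunits encoded there are outside these data.

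Oocytes were collected at 3 stages of meiotic maturation, and mRNA carried by polysomes was purified, amplified and hybridised to Affymetrix mouse whole-genome arrays, 3 arrays a stage. All mice had received PMSG, a gonadotropin that stimulates follicle growth, 48 h before hCG, which triggers maturation. The germinal vesicle (GV) oocytes, in prophase arrest, were taken at 0 h, the metaphase I (MI) oocytes at 4 h and the metaphase II (MII) oocytes, the stage of the ovulated egg, at 14 h after hCG. The labels describe the 3 arrays of a stage as independent sets but do not say that they came from separate mice, so the p-values measure the spread between these arrays, part of which may be technical. The sources used here give no mouse strain, age or number of pooled oocytes. The description of the MI samples carries the abbreviation pGVB, which is not explained, while their titles and stage fields give MI.

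Complexes II to IV, with complex I, form the respiratory chain of the inner mitochondrial membrane. Complex II (succinate dehydrogenase) passes electrons from succinate to ubiquinone, complex III passes them to cytochrome c, and complex IV (cytochrome c oxidase) passes them to oxygen, with complexes III and IV pumping protons on the way. Complex V lets the protons flow back through a ring of c subunits whose rotation drives ATP synthesis in the F1 head. The fully grown mouse oocyte relies on its mitochondria for ATP, with pyruvate as the main fuel, and transcribes little or no new mRNA during maturation.

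The promoters of 4 members are shown first because they belong to 2 pairs of subunits that changed differently at MII, described below. Sdha and Sdhb share the catalytic head of complex II. Cox6b1 and Cox6b2 are the somatic and testis forms of the same complex IV subunit. Each sequence runs 5′ to 3′ on the gene's own strand, from 250 bases before to 50 bases after the start in RefSeq (GRCm38.p6). The Sdha window is chr13:74350191-74350490 on the minus strand, the Sdhb window chr4:140961021-140961320 on the plus strand, the Cox6b1 window chr7:30626065-30626364 on the minus strand and the Cox6b2 window chr7:4753045-4753344 on the minus strand. Capitals mark matches, on either strand, to 5 motifs: CCGGAAG (bound by ETS factors such as GABP), GCGCANGCG (NRF1), AAGATGGCG (YY1), TGACGTCA (CRE) and CCAAT.
Sdha: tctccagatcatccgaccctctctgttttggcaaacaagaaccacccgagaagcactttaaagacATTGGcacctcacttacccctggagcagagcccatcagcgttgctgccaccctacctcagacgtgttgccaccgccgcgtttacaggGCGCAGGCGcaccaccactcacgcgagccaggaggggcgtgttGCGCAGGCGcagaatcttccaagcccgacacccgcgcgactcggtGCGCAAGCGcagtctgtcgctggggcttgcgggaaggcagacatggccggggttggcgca
Sdhb: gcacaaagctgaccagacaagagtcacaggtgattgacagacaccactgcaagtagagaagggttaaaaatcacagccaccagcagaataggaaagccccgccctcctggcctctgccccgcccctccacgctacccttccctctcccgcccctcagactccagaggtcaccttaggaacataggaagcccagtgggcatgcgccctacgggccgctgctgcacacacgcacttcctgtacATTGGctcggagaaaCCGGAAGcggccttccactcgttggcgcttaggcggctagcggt
Cox6b1: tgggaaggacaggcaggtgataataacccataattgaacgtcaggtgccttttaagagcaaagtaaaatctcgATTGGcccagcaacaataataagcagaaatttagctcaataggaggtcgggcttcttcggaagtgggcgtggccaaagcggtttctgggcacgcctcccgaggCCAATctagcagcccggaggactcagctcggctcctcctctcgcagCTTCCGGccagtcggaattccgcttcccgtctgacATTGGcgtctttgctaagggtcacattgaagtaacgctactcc
Cox6b2: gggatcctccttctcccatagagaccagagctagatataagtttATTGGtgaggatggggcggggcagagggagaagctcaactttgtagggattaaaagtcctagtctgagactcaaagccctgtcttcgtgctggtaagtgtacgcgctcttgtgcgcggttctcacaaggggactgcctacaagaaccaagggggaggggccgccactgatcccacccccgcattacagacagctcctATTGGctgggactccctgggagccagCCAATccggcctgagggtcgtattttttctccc
The Sdha window holds 3 matches to the NRF1 motif and none to the ETS motif. The Sdhb and Cox6b1 windows each hold an ETS motif, and in the Cox6b2 window the only matches are 3 CCAAT boxes.

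Promoter windows were given for 36 of the 48 members, some with more than 1 start, 39 windows in all. The ETS motif was found in 33.3% of these windows against 8.86% of all 32851 windows of the same length, the NRF1 motif in 33.3% against 6.25%, YY1 in 5.13% against 1.4%, CRE in 5.13% against 1.79% and CCAAT in 53.8% against 37.4%. Matches to different motifs were counted separately, also where they overlap. Of the 26 members with a window that fell from MI to MII, 13 held an ETS motif and 11 an NRF1 motif. Of the 10 that did not pass, 0 held an ETS motif and 2 an NRF1 motif, and CCAAT was found in 14 of the 26 and 6 of the 10. These are letter matches in a window and say nothing of binding. Several of the 10 are tissue isoforms with little signal, and the split was not tested.

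Between MI and MII, 31 of the 48 members fell and 0 rose (64.6%; limma, Benjamini-Hochberg adjusted p under 0.05 over all genes). Of all genes measured, 6.78% fell and 2.54% rose, and of the genes at or above the median signal 13.2% fell, against 31 of the 43 members at that signal (72.1%). Rises made up 27.3% of the calls over all genes as deposited, 42.2% after quantile normalization and 41.3% with equal 95th percentiles, and 0 members rose under any of these. At an unadjusted p under 0.05, 37 members were lower and 2 higher, against 13% and 8.42% of all genes. In 36 members all 3 MII arrays lay below all 3 MI arrays, and in 3 (Sdha, Uqcrc1 and Cox7b2) they all lay above. Over all genes, 15.3% had every MII array below and 11.7% every MII array above. The median change over the members was -2.61 on the log2(intensity + 16) scale, 6.12-fold lower, against -0.02 over all genes and -0.14 over genes at or above the median signal. The scale understates the change of a gene whose signal comes near background. The uncalled members of complex IV were its 7 tissue isoforms, Cox7a2 and Cox7c.

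**Figure D1:**
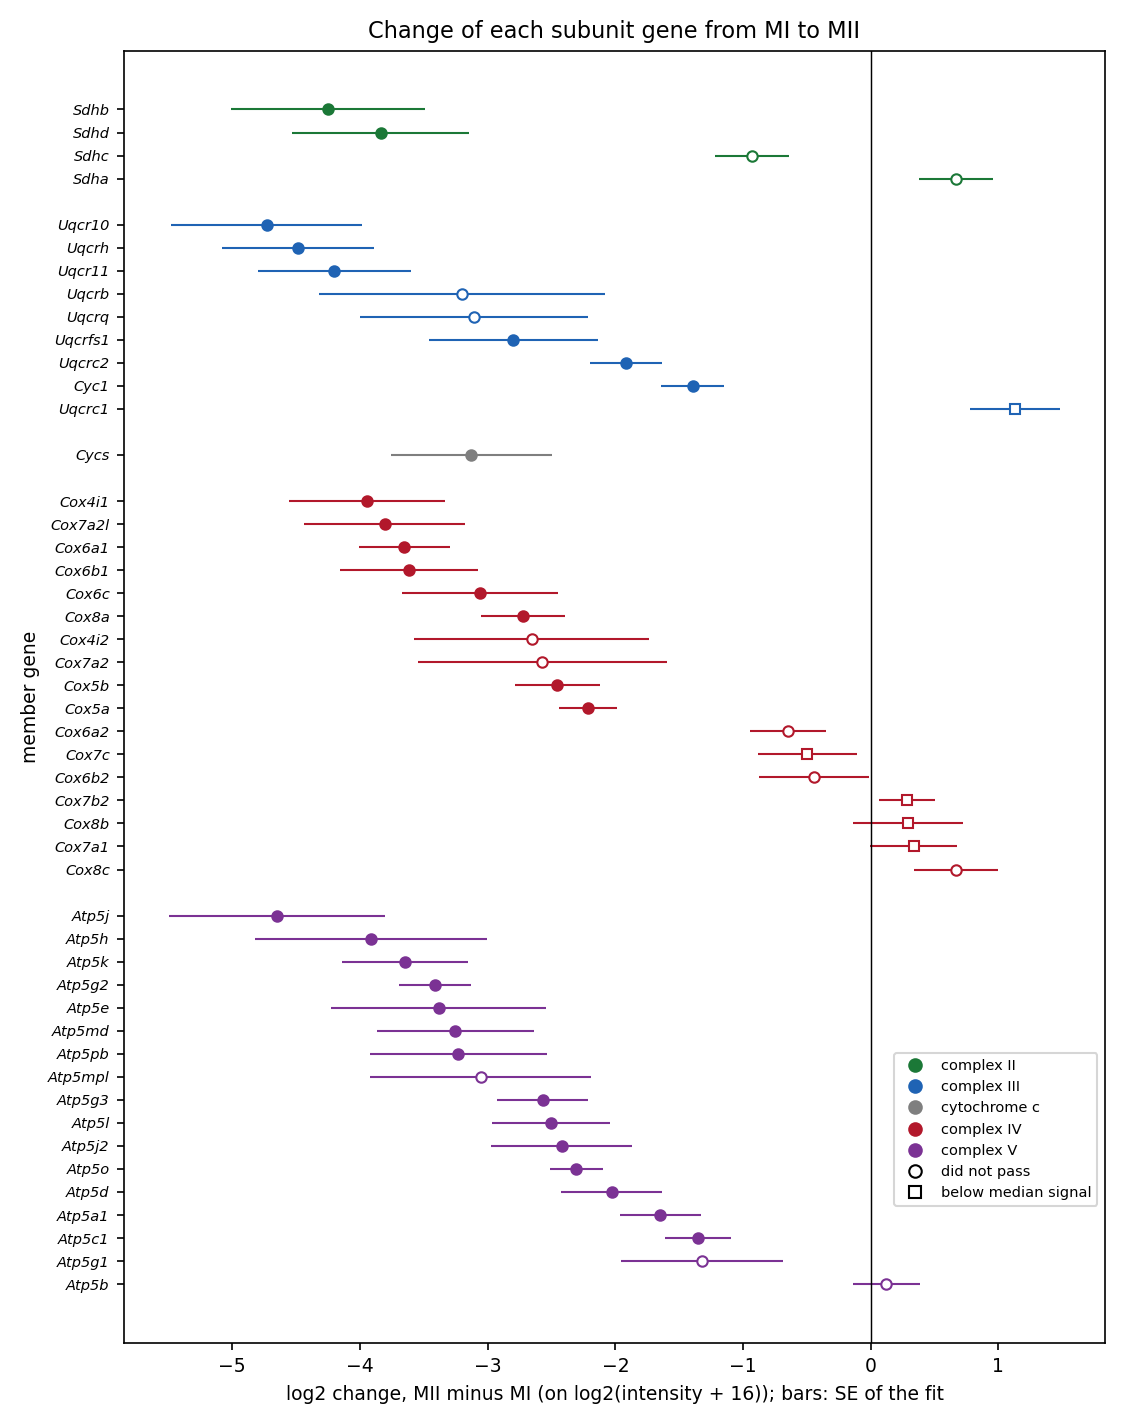
Change of each member from MI to MII on the log2(intensity + 16) scale, with bars for the standard error of the fit, ordered within each complex. Filled circles passed the test, open circles did not, and open squares lie below the median signal; Sdha, Atp5b and Cox8c are the open circles to the right of 0.

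Measured from GV to MII, 33 of 48 members fell and 0 rose (68.8%), with 38 lower and 1 higher at an unadjusted p under 0.05, against 14.7% and 10.9% of all genes. Of all genes, 8.8% fell and 5.46% rose in this comparison in limma, and 17.2% of those at or above the median signal fell, against 76.7% of the 43 members there. The 2 comparisons share the MII arrays. From GV to MI no member passed in either direction, as 0% of all genes fell and 0% rose, and 3 members were lower and 0 higher at an unadjusted p under 0.05. For all genes these shares were 3.45% and 3.74%, so 3 of 48 is near the background. All 3 MI arrays lay below all 3 GV arrays in 10 members and above them in 0, where 6% of all genes had every MI array below and 6.42% every MI array above. The 10 were Sdhb, Uqcrc2, Uqcrfs1, Cyc1, Cox4i1, Cox7b2, Atp5c1, Atp5o, Atp5pb and Atp5g1.

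Counts of falls from MI to MII and median changes are given for each complex as a description. Complex V had 14 of 17 (82.4%), complex III 6 of 9, cytochrome c its 1 gene, complex II 2 of 4 and complex IV 8 of 17. All falls were of members at or above the median signal. Every member of complexes II and V and cytochrome c reached it, against 8 of 9 in complex III and 13 of 17 in complex IV. From GV to MII the counts were 15, 7, 1, 2 and 8. The order from MI to MII rests on single arrays: without MI 2, complex V had 6 falls, complex III 4, cytochrome c 0, complex II 0 and complex IV 7, and with only the 2 stages fitted complex V had 6 and complex IV 7. Complex V had 8 without MI 1 and 9 without MII 3. The median change from MI to MII was -3.11 in complex III (8.61-fold lower), -2.57 in complex V (5.93-fold), -2.46 in complex IV (5.48-fold) and -2.39 in complex II (5.22-fold). With subunits only and without tissue isoforms below the median signal, the complex IV median was -2.57. Among the 35 complex I subunits measured, 28 fell and the median change was -3.27. The medians of complexes II, IV and V lie closer to one another than the SD of an array's median level within a stage, which was 0.71 for complex II, 0.73 for III, 0.57 for IV and 0.60 for V. The distance of complex III from them is about as large as that spread, and no test between complexes was run. That SD belongs to array levels and not to medians of gene changes, so it is only a rough scale for these distances.

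The median level of each complex in each array also stepped down at MII, by amounts that differ from the medians of the gene changes. In complex II the median log2 level was 11.62, 10.92 and 10.89 in the GV arrays 1 to 3, 10.99, 11.03 and 11.08 in the MI arrays and 9.77, 9.57 and 7.94 in the MII arrays. In complex III it was 11.14, 10.02 and 10.33 at GV, 10.40, 11.25 and 10.002 at MI and 7.77, 6.76 and 6.15 at MII. Complex IV gave 11.00, 10.69 and 10.90, then 10.90, 11.17 and 9.84, then 7.77, 8.01 and 7.25. In each complex the GV and MI arrays overlapped and every MII array lay below all 6 others. Complex V gave 11.57, 10.98 and 10.86 at GV, 11.33, 11.43 and 10.62 at MI and 8.27, 8.94 and 7.48 at MII, with the MII arrays again apart from the rest. Over all genes the array medians lay between 5.45 and 5.76. Relative to the mean of its GV arrays, complex II lay at -1.38, -1.58 and -3.20 in the MII arrays. Complex IV lay at -3.09, -2.85 and -3.61, so these 2 complexes are further apart here than in the medians of the gene changes.

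**Figure D2:**
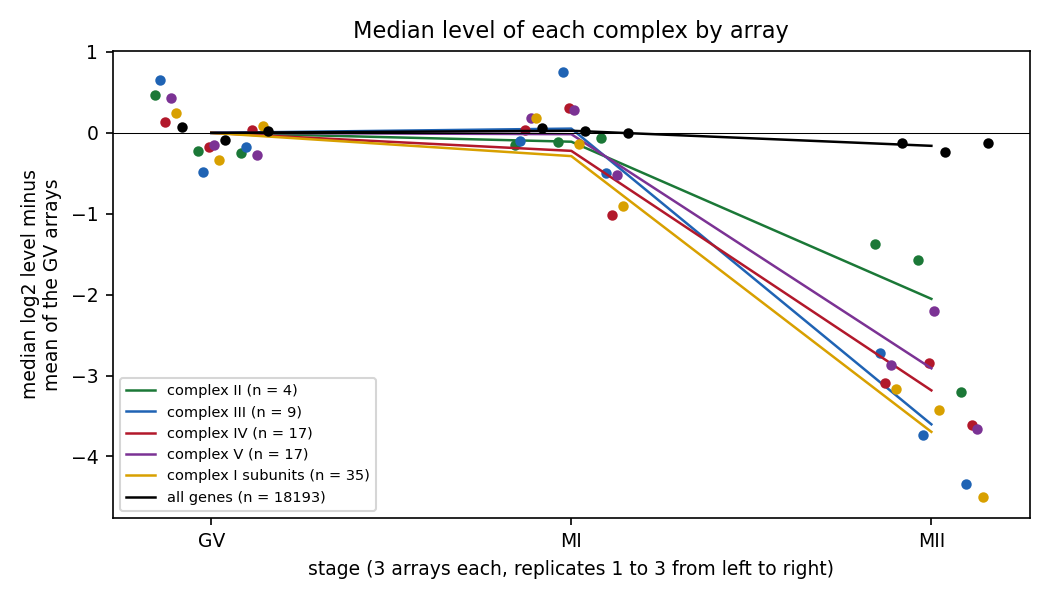
Median log2 level of each complex in each array, minus the mean of its 3 GV arrays, with lines through the stage means; complex I subunits and all genes are drawn beside them. The MII arrays 1 to 3 lie at -1.38, -1.58 and -3.20 for complex II and at -2.73, -3.74 and -4.35 for complex III, while all genes stay near 0.

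Single arrays moved with these values. Of the 43 members at or above the median signal, MII 3 was the lowest MII array in 30 and MI 3 the lowest MI array in 29. The 95th percentile of intensity was also lowest in MII 3, 1126, against 1162 in MII 2, 1221 in MII 1 and 1458 in MI 1, the highest. The number of members that fell from MI to MII was 23 without MII 3 and 28 without MI 3, and it was lowest, 17, without MI 2. From GV to MII it stayed between 28 and 34 whichever array was left out. Of the 31 members called from MI to MII, only 15 passed in all 9 fits that leave out 1 array, and of the 33 called from GV to MII, 28 did.

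Markers of other cells were low beside those of the oocyte. All 12 oocyte markers (zona pellucida, Gdf9, Bmp15 and others) were at or above the median signal. Their summed intensity was 71760 to 75345 at GV, 62146 to 67810 at MI and 36844 to 42844 at MII. Of 16 granulosa, cumulus and theca markers measured, 4 reached the median signal, and they summed to 1000.01 to 1103 at GV, 1066 to 1350 at MI and 748 to 1088 at MII, highest in MI 3. Of 7 blood, immune and endothelial markers, 2 reached it, with sums of 350 to 831, 464 to 838 and 622 to 924. The part of these levels in the results was not tested. Fewer cells of a type and less RNA per cell cannot be told apart in these samples, nor can less mRNA and less of it on ribosomes.

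Complex II split into a pair of subunits that fell and a pair that did not pass. Sdha encodes the flavoprotein that oxidises succinate. Its intensity was 3417, 2077 and 1752 in the GV arrays, 1663, 1836 and 1829.8 in the MI arrays and 3597, 2622 and 2419 in the MII arrays. Every MII array lay above every MI array, while MII and GV arrays overlapped. The difference of 0.67 (SE 0.29) from MI to MII did not pass (limma adjusted p = 0.23), and a second Sdha probe set gave -0.16. Sdhb encodes the iron-sulfur subunit that takes the electrons from Sdha. It gave 3687, 1789 and 2018 at GV, 946, 1243 and 399 at MI and 124, 3.82 and 10.3 at MII. The 3 stages did not overlap, and MII 2 and MII 3 lay below the median signal of all genes. Sdhb fell by 4.25 (SE 0.76) from MI to MII (19.0-fold lower, adjusted p = 0.0141) and from GV to MII it fell by 5.83 (57.1-fold, adjusted p = 0.0027). With MII arrays at background these folds follow the pseudocount: from MI to MII 41.0-fold with 1 and 8.63-fold with 64, and from GV to MII 125-fold and 24.8-fold, all past the threshold. Its MI difference from GV, -1.59, did not pass (adjusted p = 0.753).

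Sdhc and Sdhd encode the membrane anchor, which holds the haem and the ubiquinone site together with Sdhb. Sdhc gave 2853, 3177 and 2516 at GV, 3693, 3788 and 2528 at MI and 2412, 1635 and 1273 at MII. All MII arrays were the lowest, yet the difference of -0.93 (SE 0.29) from MI did not pass (adjusted p = 0.0939), and a second Sdhc probe set gave -2.25. With the mean of all its probe sets Sdhc passed, at -1.59 (adjusted p = 0.0187). Sdhd gave 2515, 1677 and 1714 at GV, 2449, 2343 and 2549 at MI and 296, 333 and 30.8 at MII. GV and MI arrays overlapped, MII arrays were far below them, and Sdhd fell by 3.84 (SE 0.70, 14.3-fold lower, adjusted p = 0.0147). The calls from MI to MII were lost without MI 2 for both Sdhb (adjusted p up to 0.0535) and Sdhd (0.0502), and without MII 3 for Sdhb, and those from GV to MII held without any 1 array. With the mean of its probe sets Sdhd from GV to MII was -2.69 (adjusted p = 0.0515). Subtracting log2 levels within each array, Sdha minus Sdhb widened by 4.92 from MI to MII and Sdhc minus Sdhd by 2.91, with no overlap between the stages. The second difference depends on the probe sets used: the other ones gave -2.25 for Sdhc and -2.99 for Sdhd, which lie closer together. These pairs were chosen after their values were seen, so the differences are a description.

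**Figure D3:**
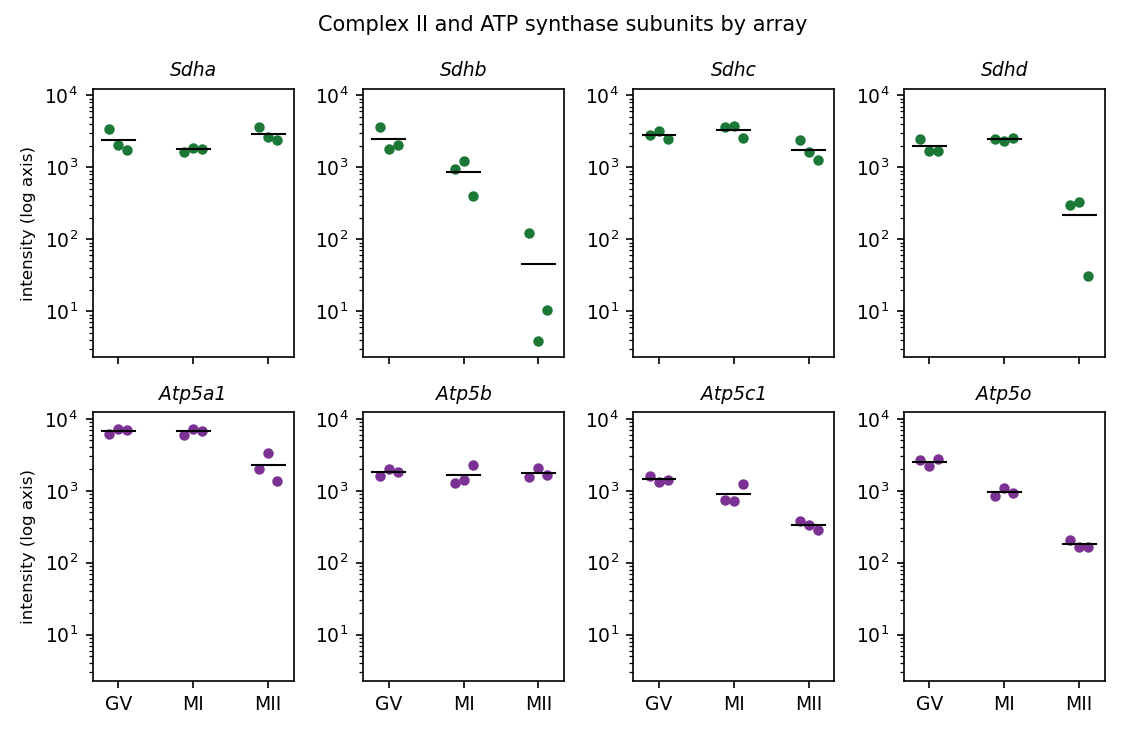
Intensity of the 4 complex II subunits and of 4 subunits of the ATP synthase head and stalk in each array, on a log axis, with a bar at the mean of the 3 arrays of a stage. The MII arrays of Sdha and Atp5b lie among or above their earlier arrays, those of Sdhb, Sdhd and Atp5o lie below all of them, and every MI array of Atp5o and Sdhb lies below the GV arrays.

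In complex III, 6 of 9 members fell from MI to MII, the 3 largest falls being those of the small accessory subunits Uqcr10, Uqcrh and Uqcr11. Cyc1, the cytochrome c1 haem protein that hands electrons to cytochrome c, gave 231, 228 and 236 at GV, 161, 184 and 123 at MI and 40.9, 70.8 and 38.6 at MII. The stages did not overlap, and Cyc1 fell by 1.40 (SE 0.25) from MI to MII (adjusted p = 0.0137). The call was lost without MI 2 (0.0519), with a pseudocount of 1 (0.0565) and with an intensity trend in the prior (0.116). Uqcrfs1, the Rieske iron-sulfur protein, gave 830.4, 1021 and 867, then 771, 604 and 492, then 271, 20.1 and 55. It fell by 2.80 (SE 0.66, adjusted p = 0.0358), but with 1 array left out its adjusted p reached 0.114 and the call held only without MII 1. It was also lost with a pseudocount of 1 (0.0514) and with only the 2 stages fitted (0.0928). From GV to MII it fell by 3.35 (adjusted p = 0.013) and held without any 1 array.

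The core proteins Uqcrc1 and Uqcrc2 form the large matrix domain of complex III. Uqcrc2 gave 2812, 3049.8 and 2898 at GV, 2761, 2417 and 2117 at MI and 729, 407 and 831 at MII. All MII arrays were low, and Uqcrc2 fell by 1.92 (SE 0.28, adjusted p = 0.00669). Uqcrc1 had no array above 38.9, with 31.4, 38.9 and 24.9 at MII against 6.94, 1.91 and 8.68 at MI. Its signal is too near background to read a level, and the difference of 1.13 did not pass (adjusted p = 0.0955), though it passed without GV 2 (0.0384).

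Of the 5 accessory subunits, 3 fell from MI to MII. Uqcrh, the hinge protein beside Cyc1, gave 6811, 1703 and 3871 at GV, 5929.7, 4956 and 2166 at MI and 213, 92.4 and 216 at MII, and fell by 4.48 (SE 0.60, 22.4-fold lower, adjusted p = 0.00477). Uqcr10 gave 2247, 598 and 842, then 2062, 4496 and 1009.6, then 25.4, 158 and 55, and fell by 4.73 (SE 0.75, 26.6-fold, adjusted p = 0.00837). Uqcr11 gave 3944, 1239.9 and 1619, then 3299, 2447 and 1166, then 202, 60.5 and 77, and fell by 4.20 (SE 0.60, 18.4-fold, adjusted p = 0.00583). In all 3 genes the highest MII array lay below the lowest GV and MI arrays, and the calls held without any 1 array. That of Uqcr10 from GV to MII, -3.73, was lost with the mean of its probe sets (-1.85, adjusted p = 0.0575). Uqcrq had -3.11 (adjusted p = 0.0729) and Uqcrb -3.20 (adjusted p = 0.133), also with every MII array below every MI array. In both the MII arrays were far apart: Uqcrb gave 439, 844 and 18.9, and Uqcrq 43.5, 273 and 15.5. Uqcrq passed without MII 2 (adjusted p = 0.0255) and fell from GV to MII by 4.06 (adjusted p = 0.0202), where the call was lost without GV 1, GV 3, MII 1 or MII 3 (up to 0.0658) and with only the 2 stages fitted (0.0519).

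Cycs encodes somatic cytochrome c, the carrier between complexes III and IV and a trigger of apoptosis when released. It gave 3746, 2218 and 2521 at GV, 4224, 4173 and 3021 at MI and 940.0, 569 and 129 at MII. MII arrays were the lowest, and Cycs fell by 3.13 (SE 0.63, 8.74-fold lower, adjusted p = 0.0205). The call was lost without MI 1 or MI 2 (adjusted p up to 0.0699), and from GV to MII without any 1 of the GV arrays (up to 0.0817). Other Cycs probe sets that reached the median signal gave -2.36 and -0.09 from MI to MII, and -1.98 and 1.95 from GV to MII, so they disagree in size and, from GV to MII, in direction. With the mean of all its probe sets neither call stood: -1.34 from MI to MII (adjusted p = 0.0796) and -0.46 from GV to MII (0.572). With only the 2 stages fitted the adjusted p was 0.059 and 0.0635.

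Complex IV held a group of ubiquitous subunits, most of which fell, and a group of tissue isoforms of which 0 of 7 passed in any comparison. Only 4 of the 7 reached the median signal. From MI to MII these had -2.66 (Cox4i2), -0.65 (Cox6a2), -0.45 (Cox6b2) and 0.67 (Cox8c). Cox6a2, Cox6b2 and Cox8c changed less than every ubiquitous subunit at or above the median signal, while Cox4i2 lay within the range of those subunits. No test compared the groups. Among the 9 subunits without a tissue restriction, 7 fell, with a median of -2.72. Cox4i1, the regulatory subunit that binds ATP, gave 2849, 2379 and 2406 at GV, 1899, 2294 and 1436 at MI and 153, 242 and 24.6 at MII. It fell by 3.94 (SE 0.61, 15.4-fold lower, adjusted p = 0.00792). Cox5a gave 3999, 3082 and 5015, then 5177, 4266 and 5300.3, then 1095, 1024 and 1009, and fell by 2.21 (SE 0.23, adjusted p = 0.00202). Its MII arrays lay within a narrow band, far below every MI array. Cox5b, the zinc-binding subunit, gave 5593, 4881 and 6952, then 5613, 4533 and 3436, then 995, 1003 and 504, and fell by 2.46 (SE 0.33, adjusted p = 0.00499).

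Cox6a1 and Cox6b1 had the largest falls of complex IV after Cox4i1 and Cox7a2l. Cox6a1 gave 5612, 5189 and 6517 at GV, 5250.4, 6681 and 6532 at MI and 516, 758 and 266 at MII, and fell by 3.65 (SE 0.36, 12.6-fold lower, adjusted p = 0.00174). Cox7a2l, which takes part in joining complexes III and IV into supercomplexes and is known also as Scaf1, gave 6179, 3458 and 3307, then 5147, 5232 and 3123, then 337, 734 and 102. It fell by 3.81 (SE 0.63, adjusted p = 0.0102). Cox8a fell by 2.72 and Cox6c fell by 3.06. Of the falls in complex IV only that of Cox6c was lost with 1 array left out (adjusted p up to 0.0702, without MI 1, MI 2, MII 2 or MII 3), and it was 0.0616 with only the 2 stages fitted. Cox7a2 had 7092, 572 and 414 at MII, where MII 1 stood at the level of the MI arrays, 10872, 7403 and 4657. Its difference of -2.57 did not pass (adjusted p = 0.166), and without MII 1 it was -3.85 (adjusted p = 0.00628). Cox7c gave 1 to 34.1 over the arrays, at background.

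The isoform genes of complex IV differed within a subunit. Cox6b1, the somatic form of the subunit that bridges the complex IV dimer, gave 6132, 3108 and 5337 at GV, 4995, 4749.9 and 1839 at MI and 257, 509.6 and 151 at MII. It fell by 3.62 (SE 0.54, 12.3-fold lower, adjusted p = 0.00697). Cox6b2, known as the testis form, gave 2033, 1637 and 1891, then 2458, 2852 and 833, then 1295, 1461 and 1213. Its MII arrays lay between the MI arrays, and the difference of -0.45 (SE 0.43) did not pass (adjusted p = 0.656). Without MI 3, the low MI array, the difference from MI was -0.996 and passed (adjusted p = 0.0372). All MII arrays of Cox6b2 lay below its GV arrays, and the difference of -0.48 from GV did not pass (adjusted p = 0.593). Within each array, Cox6b2 minus Cox6b1 rose by 3.17 between MI and MII and by 3.54 between GV and MII, with no overlap between stages. The order reversed: Cox6b2 lay below Cox6b1 in every GV and MI array and above it in every MII array. This pair was chosen after its values were seen.

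The other isoforms had less signal. Cox4i2 is the lung isoform of subunit 4, of which Cox4i1 is the main isoform. It gave 45.4, 224 and 396 at GV, 105, 127 and 903 at MI and 12.3, 43.9 and 21.5 at MII. Its highest array was MI 3, which also had the highest sum of granulosa, cumulus and theca markers. MI 2, with the next highest sum (1250), had 127, and a link was not tested. The Cox4i2 difference of -2.66 from MI to MII did not pass (adjusted p = 0.129). Cox6a2, the heart and muscle form, lay between 102 and 257 in all arrays (-0.65, adjusted p = 0.26). Cox8c, the testis form, gave 100.2, 121 and 162 at GV, 153, 97.2 and 206 at MI and 203, 204 and 337 at MII. Every MII array of Cox8c lay above every GV array, and the differences, 0.67 from MI (adjusted p = 0.302) and 0.86 from GV (adjusted p = 0.14), did not pass. Cox7a1, Cox7b2 and Cox8b lay below the median signal. Of the 7 isoforms, 3 (Cox4i2, Cox6a2 and Cox6b2) had every MII array below every GV array, and 1 (Cox8c) had every MII array above. Over all 18193 genes, 3146 had every MII array below every GV array and 2573 above.

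**Figure D4:**
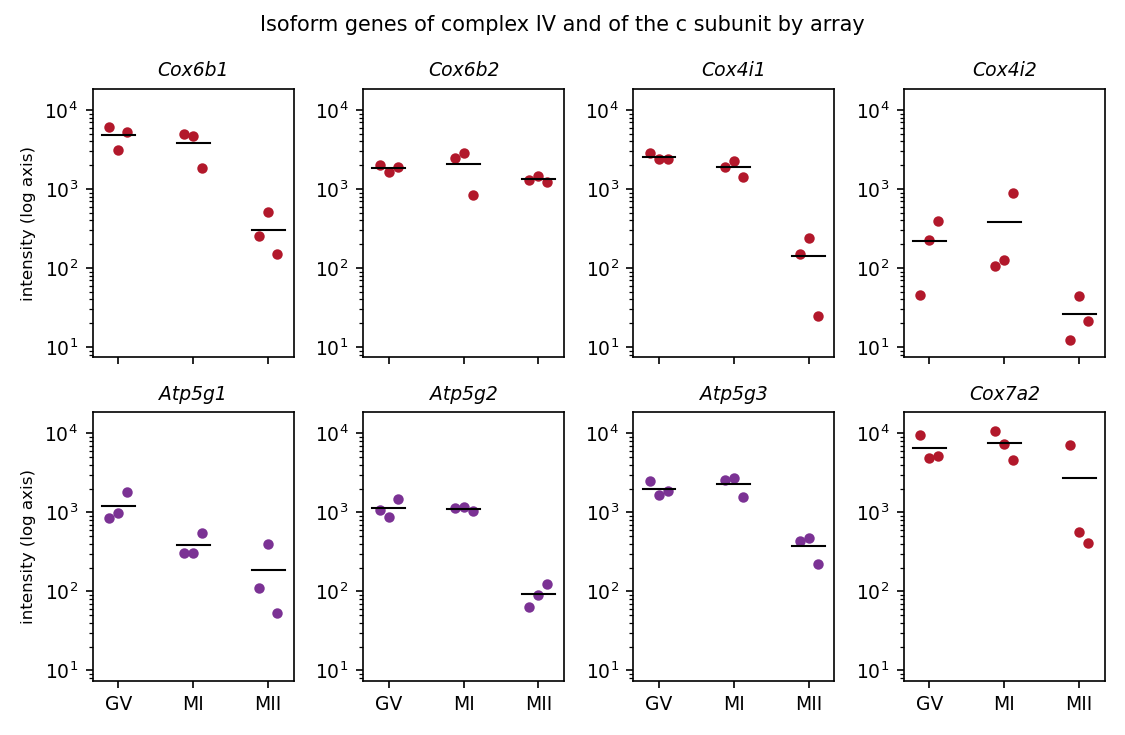
Intensity of isoform genes of complex IV and of the 3 genes of the ATP synthase c subunit in each array, on a log axis, with a bar at the mean of the 3 arrays of a stage. The MII arrays of Cox6b1 and Cox4i1 lie far below the earlier ones. Those of Cox6b2 lie between its MI arrays and below its GV arrays, and a single high MII array sets Cox7a2 apart.

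The F1 head of complex V is a ring of alternating alpha and beta subunits around a central shaft. The alpha subunit gene Atp5a1 gave 6108, 7234 and 6943 at GV, 5987, 7222 and 6804 at MI and 2023, 3353 and 1388 at MII. It fell by 1.65 (SE 0.32, adjusted p = 0.0175), and the call was lost without MI 2 or MII 1 (up to 0.0633), with a pseudocount of 1 (0.0657) and with only the 2 stages fitted (0.053). The gene of the catalytic beta subunit, Atp5b, gave 1601, 2029.7 and 1827, then 1292, 1409.7 and 2255, then 1574, 2042 and 1657. The stages overlapped throughout, and the difference of 0.12 (SE 0.26) did not pass (adjusted p = 0.868). Its sign turned to -0.030 without MI 1. Atp5b minus Atp5a1 within an array rose by 1.77 between MI and MII and by 1.62 between GV and MII without overlap. Atp5a1 was the higher in every GV and MI array, so the gap between them narrowed at MII. This pair was again chosen after its values were seen. The subunits they encode stand in equal number in the enzyme.

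The 3 subunits of the central shaft fell. Atp5c1 (gamma) gave 1613, 1335 and 1413 at GV, 737, 717 and 1222 at MI and 382, 331 and 283 at MII, with no overlap between the stages. The step from MI to MII passed at -1.35 (SE 0.26, adjusted p = 0.0177), and that from GV to MI, -0.73, did not (adjusted p = 0.611). The Atp5c1 call was lost without MII 3 (0.0608), with the mean of its probe sets (-0.64, adjusted p = 0.0947), with a pseudocount of 1 (0.0927), with equal 95th percentiles (0.0503) and with only the 2 stages fitted (0.0506). Atp5d (delta) gave 521, 478 and 657, then 539, 235 and 595, then 138, 87.6 and 62.4, and fell by 2.03 (SE 0.40, adjusted p = 0.0188), with the call lost without MI 1, MII 2 or MII 3 (up to 0.0642) and with only the 2 stages fitted (0.0546). Atp5e (epsilon) gave 6661, 2622 and 3513, then 2936, 3683 and 1638, then 425, 593 and 43, and fell by 3.38 (SE 0.85, adjusted p = 0.0448). Its MII 3 value is far below the other MII arrays, and the call held only without MII 2 or MII 3 (otherwise up to 0.135), and was lost with a pseudocount of 1 (0.0544) and with only the 2 stages fitted (0.0947). From GV to MII, Atp5c1 and Atp5d held without any 1 array and Atp5e was lost without GV 1 or GV 3 (up to 0.0588).

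The peripheral stalk, which keeps the head from turning with the shaft, had 4 of 4 members fall, with a median of -3.57. Atp5o, the subunit that joins the stalk to the top of the head and is known as OSCP, gave 2670.1, 2215 and 2719.9 at GV, 845, 1087 and 935 at MI and 209, 166 and 168 at MII. Replicates lay close together and the stages were far apart. Atp5o fell by 2.30 (SE 0.20) from MI to MII (4.94-fold lower, adjusted p = 0.00135). Counted from GV it fell by 3.70 (13.0-fold, adjusted p = 0.000423), and both calls held with any 1 array left out. Its MI difference from GV, -1.39, had the smallest unadjusted p of the members in that comparison (0.00013) and did not pass over all genes (adjusted p = 0.194), and a second Atp5o probe set gave -1.33 there. Atp5j (F6) had the largest fall of the complex: 3032, 1373 and 1379.6 at GV, 1701, 2544 and 1499.7 at MI and 31.3, 314 and 11 at MII gave -4.65 (SE 0.85, 25.1-fold lower, adjusted p = 0.0149; 0.0565 without MI 2). With 2 of its MII arrays at background, the Atp5j fold was 37.6 with a pseudocount of 1 and 13.9 with 64. Atp5h (d) gave 5765, 6243 and 5241, then 6668, 5644 and 3421, then 776, 768 and 45.1, and fell by 3.91 (SE 0.91, adjusted p = 0.0338). Atp5pb (b) fell by 3.23 (adjusted p = 0.0256). The calls of Atp5h and Atp5pb were lost without any 1 of the MI arrays, and also without any 1 of the GV arrays for Atp5h (up to 0.101; from GV to MII again without any 1 of the GV arrays, up to 0.0619) and without MII 1 or MII 3 for Atp5pb (up to 0.0765). With only the 2 stages fitted, the adjusted p was 0.0904 for Atp5h and 0.0725 for Atp5pb from MI to MII, and 0.0528 for Atp5h from GV to MII.

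The c ring is built from 1 mature protein encoded by 3 genes that differ in their import signals, of which 2 fell from MI to MII and 3 from GV to MII. Atp5g1 gave 860.5, 985 and 1821 at GV, 302, 303 and 542 at MI and 109, 398 and 53.9 at MII. Its MI arrays were already below all GV arrays (-1.61, unadjusted p = 0.0343, adjusted p = 0.662), and the further difference of -1.32 to MII did not pass (adjusted p = 0.283; -2.04 and 0.0461 without MII 2). From GV to MII Atp5g1 fell by 2.93 (adjusted p = 0.0186), a call lost without GV 3, MII 1 or MII 3 (up to 0.0647) and with the mean of its probe sets (-1.40, adjusted p = 0.0584). Atp5g2 gave 1077, 865 and 1469, then 1122, 1163 and 1035, then 64, 89.6 and 122, with GV and MI arrays overlapping, and it fell by 3.41 (SE 0.28, 10.6-fold lower, adjusted p = 0.00124) from MI to MII. Atp5g3 gave 2494, 1680.0 and 1845, then 2553, 2738 and 1553, then 437, 475 and 223, and fell by 2.57 (SE 0.36, adjusted p = 0.0055). Within an array, neither the Atp5g1 nor the Atp5g3 level minus that of Atp5g2 set the MI and MII arrays apart: both differences overlapped between the stages.

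The remaining membrane subunits of complex V, which line the ring or join enzyme dimers, fell in 4 of 5 cases, with a median of -3.06. Atp5k (e) gave 5187, 3337 and 3877 at GV, 4544, 4436 and 3102 at MI and 235, 706 and 162 at MII, and fell by 3.65 (SE 0.49, 12.5-fold lower, adjusted p = 0.00499). Its partner Atp5l (g) gave 3933, 3787 and 4127, then 4239.8, 4539 and 3651, then 1020.4, 1171 and 299.7, and fell by 2.51 (adjusted p = 0.0156; 0.0573 without MI 2 and 0.0517 with only the 2 stages fitted). Atp5j2 (f) fell by 2.42 (adjusted p = 0.0326) and Atp5md fell by 3.25 (adjusted p = 0.0166). Atp5mpl had -3.06 and did not pass (adjusted p = 0.0695), with 281, 1507 and 177 at MII, and without MII 2, the high array, it was -3.95 (adjusted p = 0.0242). Atp5j2 passed only without GV 1, MI 3 or MII 2 (otherwise up to 0.101) and was lost with a pseudocount of 1 (0.0508) and with only the 2 stages fitted (0.0804). Atp5md was lost without MI 1, MI 2 or MII 3 (up to 0.0618).

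Other probe sets of the members gave the same picture in sign. Of 33 further probe sets that reached the median signal, in 25 members, 32 had the sign of the probe set used from MI to MII, the exception being that of Sdha. All 28 that belong to members that fell were below 0. Cox6b1 gave -3.99, Cox5b -3.14, -3.09 and -2.70, Uqcr10 -2.36 and -2.88, and Sdhd -2.99 by their other probe sets. Cox7a2 and Uqcrb, which did not pass, gave -3.18 and -3.46.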

How the data were processed

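The authors deposited 1 table of intensity values on a linear scale, one per probe set and array. The sources used here do not give the summarisation, background correction or scaling, and the table has no detection calls, so depth is expressed as signal relative to the median of all genes. Per the labels' protocols, polysome-bound mRNA was column-purified, reverse-transcribed and linearly amplified before biotin labelling. Of 45101 probe sets, 64 controls were left out; 34945 had 1 symbol in the platform annotation, 932 several and 9160 none. Only those with 1 symbol were used, and for 9010 genes with several, the one with the highest mean log2 value over the 9 arrays. A RefSeq table (GRCm38.p6) held 18032 of the 18193 genes and changed 0 symbols. No 2 arrays held identical values.

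The deposited intensities, unfiltered, were taken to log2(intensity + 16). A single linear model of the 3 stages used all 9 arrays (limma 3.58.1, lmFit and eBayes, under R 4.3.3). Tests were two-sided, with Benjamini-Hochberg adjustment over all 18193 genes and a threshold of 0.05. Folds are taken from that log2 scale. The fit was tested on simulated data. Members were found by symbol. Values in every array are given for the Sdh genes, catalytic and core subunits, the 3 c subunit genes, the 3 largest falls of each complex, the member at or above the median signal with the smallest change in each complex, and the 3 smallest p-values of MI minus GV; Uqcr and Cox members with wide MII arrays, Cox6b1, Cox7a2, Cox4i2, Cox8c, Atp5l and Atp5mpl were added after their values were seen. Members, lists and pairs were chosen with earlier results of these data known. Other lists were complex I subunits, assembly factors, regulators of mitochondrial gene expression and markers of oocyte, granulosa, cumulus and theca, and blood, immune and endothelial cells. Alternatives were other pseudocounts, a low-signal filter, 3 scalings, the mean of all probe sets, an intensity trend, a fit of 2 stages, the replicate number as a block, and each array left out.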

Additional observations from a re-analysis of the deposited data

How the results depend on the processing

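The count of members that fell from MI to MII, 31, lay between 25 and 33 with a pseudocount of 1 or 64, without the lowest 40% of genes, under the 3 scalings, with probe sets averaged and with an intensity trend. It was 20 with only the 2 stages compared, which leaves fewer arrays for the spread, and 17 to 31 with 1 array left out; from GV to MII it was 28 to 34 with 1 array left out and 30 to 34 otherwise, against 33. The count that rose from MI to MII was 1 with only the 2 stages compared and 0 to 1 with 1 array left out, the member being Uqcrc1. By complex, complex V had 6 falls from MI to MII without MI 2 and with only the 2 stages, 8 without MI 1 and 9 without MII 3, against 14, and complex II had 0 without MI 2. The complex III median ran from -3.90 to -2.42 with 1 array left out, and the change of cytochrome c was -1.34 with the mean of all its probe sets; the cause was not tested. Atp5b reversed to -0.030 without MI 1 and ran to 0.37 without MI 3. Under every scaling the all-gene median moved by less than 0.1, but the share of rises among all genes called from MI to MII was 27.3% as deposited, 42.2% after quantile normalization and 41.3% at equal 95th percentiles. Deviations of same-numbered arrays of different stages had correlations of 0.00076 to 0.226, all 9 above 0 and 4 of 9 over 0.1. Those of differently numbered arrays ran from -0.25 (GV 1 with MI 3) to 0.109 (GV 1 with MI 2). Whether the numbers mark paired samples is not settled by these values. With the replicate number as a block, 31 members fell from MI to MII and 33 from GV to MII. Members near background, such as Uqcrc1 and Cox7c, have no readable level.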

Other observations

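Assembly factors build the complexes without being part of them. Of 34 assembly factors measured, 27 at or above the median signal, 7 fell from MI to MII and 0 rose, with a median of -1.10 (20.6%, against 6.78% of all genes and 13.2% of those at that signal). The 7 from MI to MII were Surf1 (-3.47), Cox16 (-3.07), Cox17 (-3.59), Pet100 (-4.46), Cmc1 (-1.53) and Cmc2 (-1.74), all of complex IV assembly, and Tmem70 (-1.78), which acts on the ATP synthase. From GV to MII 7 fell as well (20.6%, against 8.8% of all genes and 17.2% of those at or above the median signal). In both comparisons the 20.6% counts all 34 factors, of which only 27 reached that signal. With that limit, the share from GV to MII is not far from the 17.2%. Sdhaf1 (-2.499) and Uqcc2 (-2.84) were among those that fell from GV to MII, and Cmc1 (adjusted p = 0.0914 in limma) and Tmem70 (0.0548) were not. Cox17, a copper chaperone, went from an intensity of 4706 ± 994 at MI to 609 ± 615 at MII (SD, n = 3; limma adjusted p = 0.0326), and Pet100 from 1172 ± 488 to 37.3 ± 23.1 (SD, n = 3; limma adjusted p = 0.00536). No test compared the assembly factors with the subunits.

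Of 15 regulators of mitochondrial gene expression measured, 11 at or above the median signal, 1 fell from MI to MII, with a median of 0.12 over the list. That is 6.67%, against 6.78% of all genes, so the count is at the background. The gene was Polrmt, the mitochondrial RNA polymerase, which went from 520 ± 389 to 45.0 ± 51.2 (SD, n = 3; -3.24, limma adjusted p = 0.0237). From GV to MII 2 of the 15 fell (13.3%), against 8.8% of all genes and 17.2% of those at or above the median signal. That count is also near the background. The 2 genes were Gabpb1, the partner of the ETS factor GABP (-1.99), and Polrmt (-2.76). From MI to MII, Tfam, which packages mitochondrial DNA, had 0.77 (adjusted p = 0.432) and Nrf1 -0.68 (adjusted p = 0.325), and neither passed in limma.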
